A study of Sus scrofa with 2 samples.

Results

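The genes described here are the nuclear genes of respiratory complex I, chosen as all genes whose symbol in the deposited feature table begins with NDUF. They were 40 of 31908 features. Single-cell RNA sequencing of pig skin was compared between 1 fresh library and 1 cryopreserved library. The skin came from the back of healthy male farm pigs, and full-thickness samples were dissociated to single cells. The fresh library was made from untreated cells, and the cryopreserved library from cells frozen in serum with dimethyl sulfoxide, kept in liquid nitrogen and thawed. A live-cell sort is part of the study's workflow. The sources used here do not describe it for each library separately, nor do they say if a single animal gave both. The comparison asks whether freezing changed the level of these genes, and which skin cells held most of them.

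Complex I passes electrons from NADH to ubiquinone and pumps protons across the inner mitochondrial membrane. Its matrix arm holds an N-module, which oxidizes NADH, and a Q-module, which hands the electrons to ubiquinone. Its membrane arm pumps the protons. A core set of subunits, some encoded in the nucleus and some in the mitochondrial genome, carries the catalysis, and many small accessory subunits surround it. Assembly factors help to build the enzyme and leave it afterwards. The symbol prefix is wider than the enzyme. NDUFA4 is now assigned to complex IV, NDUFA4L2 is its paralog, and the NDUFAF genes encode assembly factors. Of 37 nuclear subunits listed for the enzyme, 30 were found by symbol and 7 were not: NDUFA3, NDUFA7, NDUFA12, NDUFB1, NDUFC1, NDUFS7 and NDUFV3.

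The fresh library held 4379 barcodes and the cryopreserved library 4860. After the study's maxima for genes (4500), UMIs (30000) and mitochondrial share (10%), 2775 fresh and 4223 cryopreserved cells remained, with a median of 11017 and 7945 UMIs per cell. Among the kept cells 5 barcodes occurred in both libraries. With 1 library per group there was no test, and no spread between replicates. Intervals are 95% and cover counting error only, so they do not cover differences between libraries, animals or days.

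The NDUF genes together had 54503 fresh and 79693 cryopreserved UMIs. These were 0.169% and 0.217% of the kept cells' UMIs. A kept fresh cell had a median of 16 NDUF UMIs and a kept cryopreserved cell, with fewer UMIs in all, a median of 15. The summed level was 1666 CPM fresh and 2201 CPM cryopreserved (CPM, UMIs scaled to a library of 1000000 UMIs with TMM factors), a log2 ratio of 0.40 (0.39 to 0.42) for cryopreserved over fresh. The median log2 ratio of the 39 members with 200 UMIs or more over the pair of libraries was 0.38, beside 0.03 over all 11692 genes with that many UMIs. Of the 39 members, 26 were higher in the cryopreserved library by 0.25 or more on the log2 scale, beside 26.6% of all genes. None was lower by that much, beside 19.3% of all genes. At a log2 ratio of 0.5 or more there were 12 members, beside 8.29% of all genes, and none was lower by 0.5, beside 4.86%. Most members have short transcripts, and these backgrounds differ for short genes, as given with transcript length. The interval lay above 0 for 30 members and below 0 for none. The same share over all genes was not computed, so this count does not set the members apart.

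**Figure D1:**
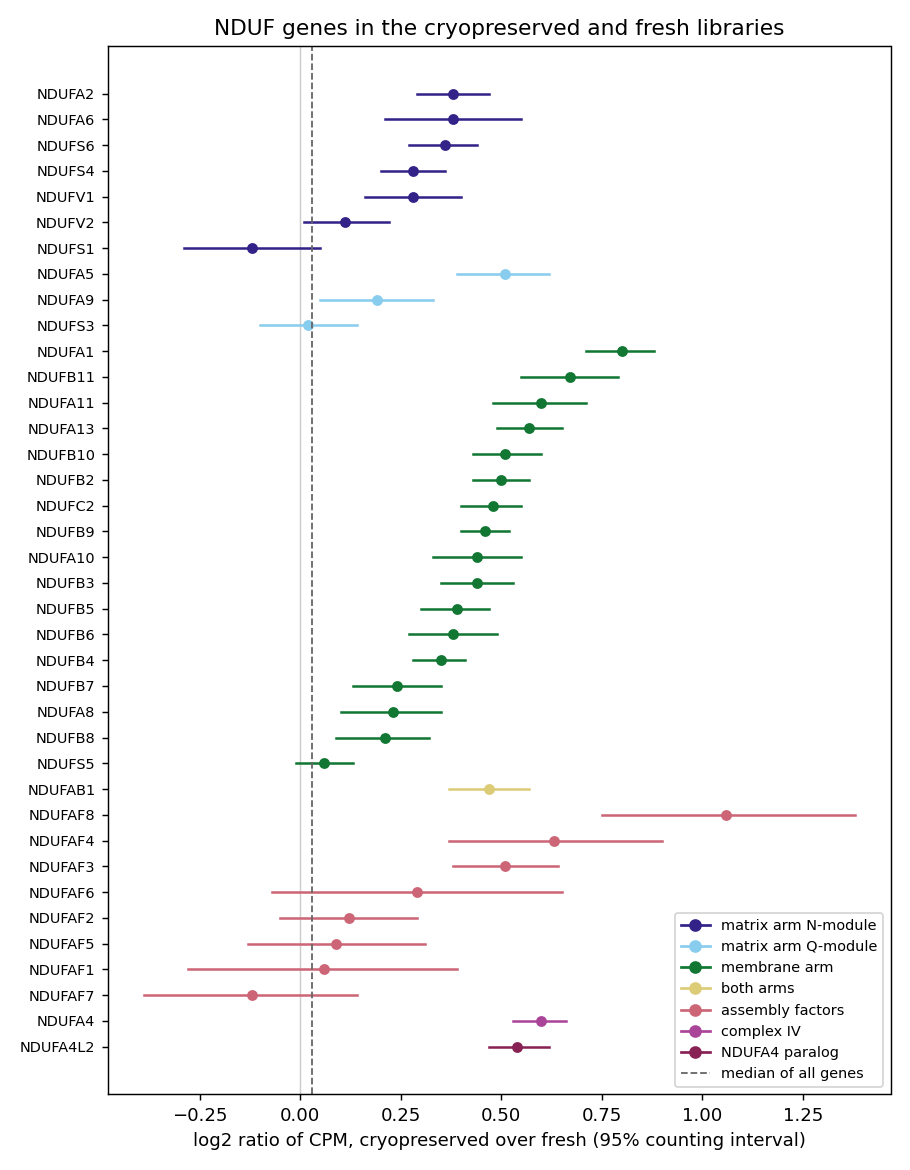
Log2 ratio of CPM (cryopreserved over fresh) for 38 NDUF genes with at least 200 UMIs, in colour by their role, with 95% counting intervals as lines and the median of all genes (0.03) dashed. The 17 membrane arm genes lie to the right of the dashed line, from 0.06 for NDUFS5 to 0.80 for NDUFA1, while NDUFS1 and NDUFS3 lie near 0.

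Levels of different members are UMIs counted at the 3′ end of transcripts, so they were not divided by transcript length. The median member had 39.4 CPM as the mean of both libraries. NDUFB9, a membrane arm subunit, had the highest mean level, with 122 CPM in the fresh library and 168 CPM in the cryopreserved library. NDUFA4 followed with 98.6 and 149 CPM, NDUFB4 with 91.8 and 117 CPM, NDUFS5 with 97.0 and 101 CPM, and NDUFC2 with 80.1 and 111 CPM. These members were found in many cells. NDUFB9 had at least 1 UMI in 63.4% of fresh cells and 61.4% of cryopreserved cells. At the low end NDUFS8, a core subunit of the Q-module, had only 3 UMIs fresh and 12 UMIs cryopreserved and was left out of the ratios. NDUFAF6 (3.45 and 4.23 CPM), NDUFAF1 (4.28 and 4.45 CPM), NDUFAF8 (3.79 and 7.90 CPM) and NDUFAF7 (7.28 and 6.68 CPM) were the next lowest, so the assembly factors held 4 of the 5 lowest places. The order of the members differed little between the libraries, with a Pearson r of 0.984 between their log2 CPM over 39 genes, a description of genes within 2 libraries.

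The nuclear core subunits, most of which hold the flavin or iron-sulfur clusters or bind ubiquinone, differed little between the libraries. NDUFS1, the largest subunit, had 17.1 CPM fresh and 15.7 CPM cryopreserved, a log2 ratio of -0.12 (-0.29 to 0.05). The level of NDUFS3 was 31.9 CPM fresh and 32.2 CPM cryopreserved, a log2 ratio of 0.02 (-0.10 to 0.14). The intervals of these 2 genes include 0. NDUFV2, on the other hand, had 41.5 and 44.9 CPM with a log2 ratio of 0.11 (0.01 to 0.22). NDUFV1, which binds NADH and the flavin, went from 31.7 CPM to 38.5 CPM, a log2 ratio of 0.28 (0.16 to 0.40). It was the only 1 of the 5 measured core subunits past 0.25, beside 26.6% of all genes, so this count does not set them apart. Summed over the core subunits the log2 ratio was 0.10 (0.04 to 0.15).

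The accessory subunits stood higher in the cryopreserved library. Of 24 with at least 200 UMIs, 19 were higher by 0.25 or more, beside 26.6% of all genes and 63.0% of genes under 1000 bases. Their median log2 ratio was 0.41, and their summed level was 1259 CPM fresh and 1680 CPM cryopreserved (log2 ratio 0.42, 0.40 to 0.43). The interval of this sum does not overlap that of the core subunits, but the lists also differ in transcript length, with a median of 734 bases for the accessory and 1585 bases for the measured core subunits, and the part of length was not tested. In the matrix arm the median was 0.28 over 7 members of the N-module and 0.13 over 4 members of the Q-module, core subunits included. NDUFS6 of the N-module had 57.8 CPM fresh and 74.1 CPM cryopreserved (log2 ratio 0.36, 0.27 to 0.44).

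Membrane arm subunits had a median log2 ratio of 0.44 over 17 members. Of these, 13 were past 0.25, beside 26.6% of all genes and 63.0% of genes under 1000 bases. NDUFA1, encoded on the X chromosome and needed for complex I to assemble, had the highest ratio of any subunit. Its level was 52.4 CPM fresh and 91.0 CPM cryopreserved, a log2 ratio of 0.80 (0.71 to 0.88). NDUFB11, likewise X-linked, had 27.8 and 44.1 CPM, a log2 ratio of 0.67 (0.55 to 0.79). Over 302 genes of the X chromosome the median log2 ratio was 0.01. The most abundant member, NDUFB9, had a log2 ratio of 0.46 (0.40 to 0.52), close to the median of the arm, and NDUFC2 (0.48, 0.40 to 0.55) lay beside it. NDUFS5 stood apart from the arm with 0.06 (-0.01 to 0.13), in spite of 3174 and 3668 UMIs. NDUFAB1, the mitochondrial acyl carrier protein that sits in both arms, had 39.5 CPM fresh and 54.8 CPM cryopreserved (log2 ratio 0.47, 0.37 to 0.57).

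Among the roles of the NDUF genes, the assembly factors had the widest range of ratios, from -0.12 to 1.06. NDUFAF8 had 124 UMIs fresh and 286 UMIs cryopreserved, and its log2 ratio of 1.06 (0.75 to 1.38) was the highest of the members. NDUFAF4 had 184 and 316 UMIs (log2 ratio 0.63, 0.37 to 0.90), and NDUFAF3 had 803 and 1265 UMIs (0.51, 0.38 to 0.64). For the other 5 the interval included 0: NDUFAF6 at 0.29 (-0.07 to 0.65), NDUFAF2 at 0.12 (-0.05 to 0.29), NDUFAF5 at 0.09 (-0.13 to 0.31), NDUFAF1 at 0.06 (-0.28 to 0.39) and NDUFAF7, a protein methyltransferase, at -0.12 (-0.39 to 0.14). The share of all genes with such an interval was not computed. The median of the 8 assembly factors was 0.20. Counts of under 400 UMIs per library left the intervals of 6 of the 8 wide. Assembly factors with other names had a median log2 ratio of 0.11 over 7 genes. Of these, 1 was past 0.25, FOXRED1 (0.46, 0.22 to 0.71), beside 26.6% of all genes.

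The pair outside complex I also stood higher in the cryopreserved library. NDUFA4 had a log2 ratio of 0.60 (0.53 to 0.66), and NDUFA4L2 had 71.4 CPM fresh and 104 CPM cryopreserved (0.54, 0.47 to 0.62). Keratinocyte-like cells, a class described below, held 2002 of the 2334 fresh NDUFA4L2 UMIs. Within that class its log2 ratio was only 0.21 (0.13 to 0.29). Without NDUFA4 and NDUFA4L2 the summed log2 ratio of the other members was 0.38, a choice made after the data were seen.

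Other nuclear genes of the respiratory chain were compared by list. Of all genes, 26.6% were past 0.25, and of genes under 1000 bases 63.0%. A transcript length was matched for 4 of the complex IV genes below, 1 of complex III and 0 of ATP synthase. These lists were therefore not compared at like length. The median log2 ratio was 0.44 over 7 nuclear complex IV genes (6 past 0.25), 0.37 over 12 ATP synthase genes (9 past 0.25), 0.31 over 6 complex III genes (4 past 0.25) and 0.13 over 3 complex II genes (0 past 0.25). The membrane arm of complex I was thus near complex IV in size, and the core subunits near complex II. The mitochondrially encoded partners, ND1 to ND6 and ND4L, had a summed log2 ratio of -0.02 (-0.03 to -0.01) and a median of 0.04. The sum includes the large fall of ND3 and was not computed without it, so it does not show the ND genes unchanged. Single ND genes went both ways, since ND3 was at 839 CPM fresh and 166 CPM cryopreserved (-2.33, -2.37 to -2.29), ND4L at 122 and 228 CPM (0.90, 0.85 to 0.96) and ND1 at 1038 and 1453 CPM (0.49, 0.47 to 0.51), while ND2 (0.04), ND4 (0.03), ND5 (0.07) and ND6 (-0.07) were within 0.1 of 0. Regulators of mitochondrial biogenesis, among them NRF1, GABPA and TFAM, had a median of -0.07 over 7 genes, of which 1 was past 0.25.

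Transcript length moved with these ratios. The longest RefSeq transcript of a member had a median of 856 bases, beside 3698 bases over the 9599 genes that could be matched by symbol (82.1%). Genes with a transcript under 500 bases had a median log2 ratio of 0.38, those of 500 to 1000 bases 0.32, and those over 5000 bases -0.13. Under 1000 bases 63.0% of 487 genes were past 0.25, and 19 of the 26 members of that length were, with a median of 0.41 beside 0.33. Of the same 487 genes 19.7% were higher by 0.5 or more, as were 9 of the 26 members, 4.93% were lower by 0.25 or more and 2.67% lower by 0.5 or more, as were 0 of the 26. Against genes of like length, then, the share of members past 0.25 was nearer to the background than against all genes. NDUFS3 with 982 bases, NDUFV2 with 862 bases and NDUFS5 with 520 bases lay below the median of their length, and NDUFA4L2 with 6639 bases and NDUFA5 with 2744 bases (0.51, 0.39 to 0.62) lay above theirs. Spearman's rho between length and log2 ratio was -0.23 over the 39 members and -0.43 over all matched genes, which is a description, since the genes share 2 libraries. The part of transcript length in the ratios was not tested.

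**Figure D2:**
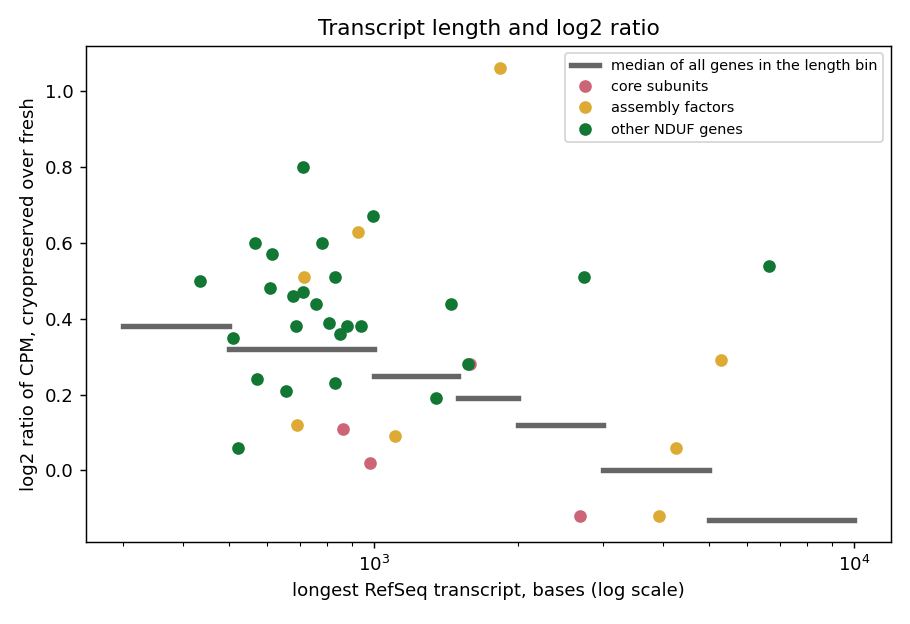
Log2 ratio of CPM (cryopreserved over fresh) of 38 NDUF genes with at least 200 UMIs against their longest RefSeq transcript in bases (log scale), with grey lines for the median of all genes in each length bin. The grey lines step down from 0.38 to -0.13, and the core subunits NDUFS1, NDUFS3 and NDUFV2 lie below them.

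Depth and cell mixture also moved between the libraries. Keratinocyte-like cells, which had the highest NDUF level, were 19.1% of fresh and 25.1% of cryopreserved cells. With the fresh library's class shares applied to both libraries and TMM factors estimated anew, the summed log2 ratio was 0.39, close to 0.40. Mixture and scaling thus changed together, and the part of the mixture alone was not computed. With total UMIs and each library's own mixture the ratio was 0.36. Within fibroblast- and keratinocyte-like cells, scaled to class totals, it was 0.33 and 0.27. The ratio stayed above 0 among cells of like depth. In fibroblast-like cells the summed log2 ratio was 0.46 (0.34 to 0.58) at 3000 to 6000 UMIs per cell, 0.49 (0.43 to 0.55) at 6000 to 10000, 0.25 (0.20 to 0.29) at 10000 to 15000 and 0.30 (0.26 to 0.35) at 15000 to 20000. In keratinocyte-like cells it was 0.32 (0.03 to 0.63), 0.67 (0.57 to 0.78), 0.63 (0.58 to 0.67) and 0.40 (0.36 to 0.45) in the same bins. Over all cells with 6000 to 10000 UMIs, a choice made after the data were seen, the summed log2 ratio was 0.76. This pool also differed in cell mixture. It held 63 fresh and 394 cryopreserved keratinocyte-like cells, and 267 and 471 fibroblast-like cells. Over UMIs of other than the mitochondrial genes, barcodes removed for their mitochondrial share had 1372 CPM fresh and 1665 CPM cryopreserved, barcodes over the gene or UMI maximum 2254 and 3208 CPM, and kept cells 1751 and 2249 CPM. In each of these 3 kinds of barcode the cryopreserved library was the higher.

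The kept cells were grouped into clusters without using the NDUF genes, and 9 classes were named from marker genes. They were fibroblast-, keratinocyte-, SMC- (smooth muscle), endothelial-, lymphatic-, CD163/CD209 myeloid-, T or NK-, Langerhans or other dendritic- and mast-like cells. The other 45 cells, in 2 clusters, were left unnamed. Levels in a class are CPM of that class's total UMIs, and free RNA and doublets in a class were not removed. The summed NDUF level was highest in keratinocyte-like cells, with 2402 CPM (2367 to 2436) fresh and 2902 CPM (2870 to 2934) cryopreserved. Of this, NDUFA4L2, which lies outside complex I, had 259 and 299 CPM. It had 98.3 and 187 CPM of the sum in SMC-like cells, and class sums without it were not computed. Next came CD163/CD209 myeloid-like cells, with 1800 CPM (1733 to 1869) and 2419 CPM (2355 to 2484). Their intervals stayed apart from those of the keratinocyte-like cells in both libraries. Depth differed between classes, and the level rose with UMIs per cell in keratinocyte- and fibroblast-like cells. At 3000 to 6000 UMIs keratinocyte-like cells had 1349 CPM fresh (16 cells) and 1690 CPM cryopreserved, and fibroblast-like cells 1268 and 1745 CPM. At 15000 to 20000 UMIs the values were 2622 and 3470 CPM against 1620 and 2001 CPM. The other classes were not compared at like depth.

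A middle group of 5 classes lay close together. Fibroblast-like cells had 1518 and 1910 CPM, SMC-like cells 1487 and 1791 CPM, mast-like cells 1484 and 2010 CPM, Langerhans or other dendritic-like cells 1465 and 1769 CPM, and T or NK-like cells 1437 and 1807 CPM. In the fresh library the intervals of these 5 overlapped between neighbours, so their order is not set by the counts. In the cryopreserved library the interval of fibroblast-like cells (1889 to 1931) lay above those of the T or NK-, SMC- and Langerhans or other dendritic-like cells. Lymphatic-like cells had 1069 CPM (999 to 1143) and 1481 CPM (1385 to 1582). Endothelial-like cells were lowest, with 813 CPM (769 to 858) and 911 CPM (859 to 966). The ratio of the highest to the lowest class was 2.96 (2.79 to 3.13) in the fresh library and 3.19 (3.0 to 3.38) in the cryopreserved library. Both include NDUFA4L2, which had only 1.27 and 1.61 CPM in endothelial-like cells, and the ratio without it was not computed. Without matching for depth, both lines of vessel cells were thus below all the other classes in both libraries.

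**Figure D3:**
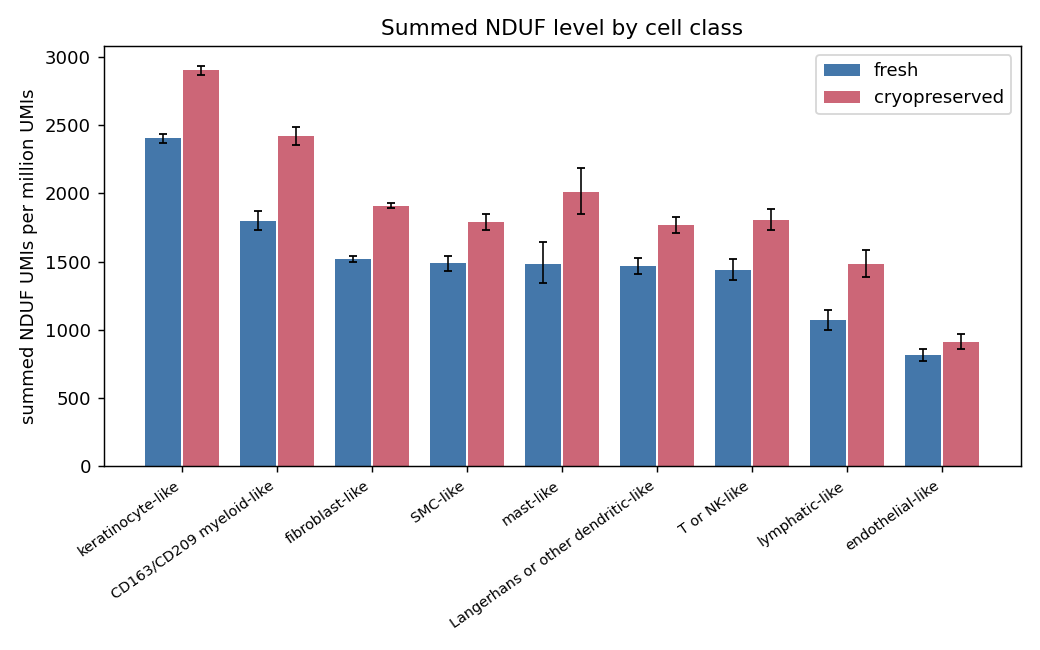
Summed NDUF level (CPM of the class's total UMIs) in each cell class in the fresh and the cryopreserved library, with 95% counting intervals. Keratinocyte-like cells are highest (2402 and 2902 CPM), endothelial-like cells are lowest (813 and 911 CPM), and the cryopreserved bar is the taller in each class.

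The mitochondrially encoded ND genes followed another order. Mast-like cells had the highest ND level, with 8778 and 9044 CPM, and keratinocyte-like cells had 6574 and 6689 CPM. Endothelial-like cells, lowest for the NDUF genes, had 5552 and 6033 CPM, above fibroblast-like cells with 4747 and 3925 CPM. NDUF UMIs per ND UMI therefore ran from 0.146 in endothelial-like cells to 0.432 in CD163/CD209 myeloid-like cells of the fresh library, and from 0.151 to 0.705 in the same classes of the cryopreserved library. Over the 9 classes in 2 libraries (18 points, which share 2 libraries), Pearson's r with the summed NDUF level on the log2 scale was 0.08 for the ND genes, 0.95 for nuclear complex IV genes, 0.94 for complex III, 0.88 for ATP synthase and 0.86 for complex II. The single genes most like the NDUF sum by this measure were a gene with the ID ENSSSCG00000034019 (0.957), COX5B (0.955) and ATP5MC3 (0.948), followed by 2 more genes known by ID at 0.925 and 0.910.

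The NDUF sum was higher in the cryopreserved library in each of the 9 classes. The log2 ratio ran from 0.16 (0.05 to 0.28) in endothelial-like cells to 0.47 (0.33 to 0.61) in lymphatic-like cells. Both ends depended on the scaling, with 0.08 in endothelial-like cells with TMM factors between classes and 0.29 in lymphatic-like cells with equal weight per cell. It was 0.33 (0.31 to 0.36) in fibroblast-like, 0.27 (0.25 to 0.30) in keratinocyte-like, 0.27 (0.20 to 0.34) in SMC-like, 0.33 (0.23 to 0.43) in T or NK-like, 0.27 (0.20 to 0.35) in Langerhans or other dendritic-like, 0.43 (0.36 to 0.49) in CD163/CD209 myeloid-like and 0.44 (0.25 to 0.63) in mast-like cells. The median of all genes in the same classes lay between -0.13 and 0.02. In fibroblast-like cells 21 of 35 members with at least 200 UMIs were past 0.25, beside 22.3% of all genes. In keratinocyte-like cells 18 of 35 were, beside 21.4% of all genes. Shares among short genes were not computed within classes. The ND genes did not move alike, with summed log2 ratios from -0.28 (-0.33 to -0.23) in CD163/CD209 myeloid-like to 0.23 (0.18 to 0.27) in SMC-like cells. These sums include ND3 and were not computed without it. Differences between classes in the ratio were not tested.

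Single members did not all keep their library ratio within the large classes. NDUFA1 had 45.5 CPM fresh and 74.3 CPM cryopreserved in fibroblast-like cells (log2 ratio 0.71, 0.57 to 0.84) and 82.5 and 131 CPM in keratinocyte-like cells (0.67, 0.53 to 0.81). It was higher in the cryopreserved library in all 9 classes. NDUFS1 was the only 1 of 35 members lower by 0.25 or more in fibroblast-like cells, beside 28.5% of all genes, with 15.9 and 12.5 CPM (-0.34, -0.62 to -0.07). In keratinocyte-like cells it had 21.9 and 23.4 CPM (0.10, -0.19 to 0.39), and none of the 35 members was lower there by that much, beside 12.8% of all genes.

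Members differed in their order of the classes. Of the 39 with at least 200 UMIs, 20 were highest in keratinocyte-like cells in both libraries and 15 were lowest in endothelial-like cells in both. The class of the highest level was the same in both libraries for 30 members. Shares of all genes with these orders were not computed, so the counts by class describe the members only. NDUFC2 had 141 and 172 CPM in keratinocyte-like cells against 14.0 and 32.2 CPM in endothelial-like cells, and NDUFS6 had 97.9 and 115 CPM against 22.3 and 24.1 CPM. A set of 6 members was highest in CD163/CD209 myeloid-like cells in both libraries. NDUFB9 was among them, with 231 CPM fresh and 415 CPM cryopreserved in that class, and 146 and 171 CPM in keratinocyte-like cells. Its log2 ratio was 0.85 (0.67 to 1.03) in CD163/CD209 myeloid-like cells and 0.22 (0.12 to 0.33) in keratinocyte-like cells. NDUFA4 followed it there with 145 and 203 CPM. Keratinocyte-like cells, by contrast, had 79.8 and 120 CPM of NDUFA4, less than the 114 and 173 CPM of fibroblast-like cells.

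Rare members gave less certain orders. NDUFAF6 had 7.63 and 7.23 CPM in keratinocyte-like cells and at most 7.38 CPM elsewhere, on 113 UMIs fresh and 153 UMIs cryopreserved in all. NDUFAF5 was highest in mast-like cells of the fresh library with 35 CPM but had 7.38 CPM in mast-like cells of the cryopreserved library, which held 68 and 82 such cells.

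**Figure D4:**
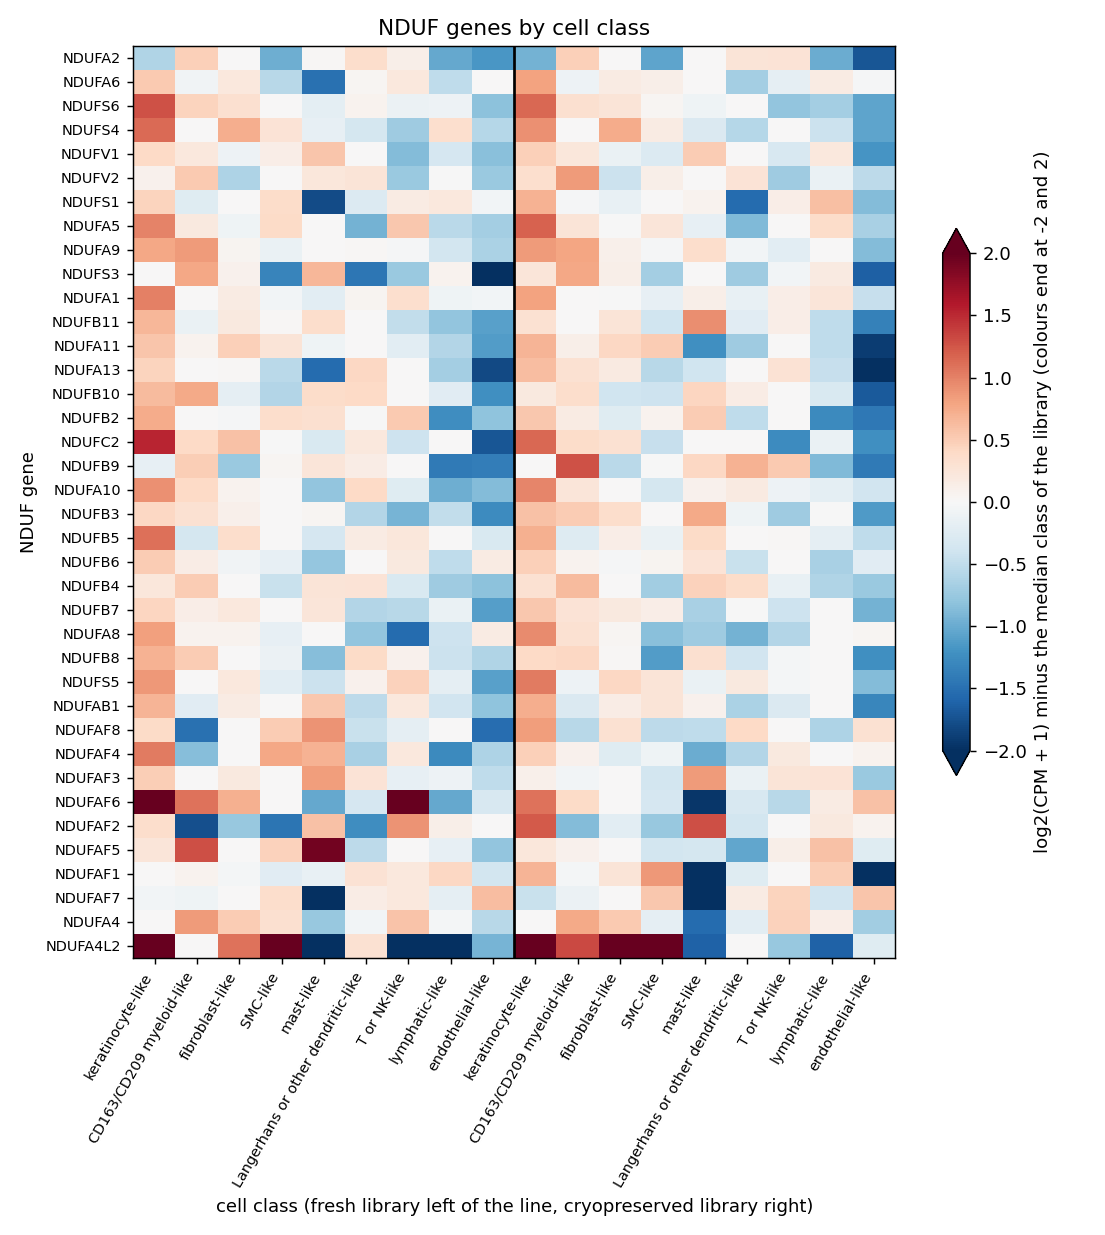
Level of 38 NDUF genes with at least 200 UMIs in each cell class, as log2(CPM + 1) minus the gene's median class in the same library, fresh left of the line and cryopreserved right, in the order of the plot of ratios. The keratinocyte-like columns are red for most genes and the endothelial-like columns blue, while NDUFB9 and NDUFA4 are redder in the CD163/CD209 myeloid-like column. Rare genes such as NDUFAF6 rest on few UMIs in small classes.

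NDUFA4L2 departed from the other members. It is known as a target of hypoxia-inducible factor that lowers respiratory activity, and it was the only 1 of 40 NDUF genes among the 2000 most variable features of these cells. The level was 259 CPM (248 to 270) fresh and 299 CPM (289 to 310) cryopreserved in keratinocyte-like cells, and 98.3 CPM (84.7 to 113) and 187 CPM (168 to 207) in SMC-like cells. Fibroblast-like cells had 8.17 and 11.9 CPM. In CD163/CD209 myeloid-like cells 5 and 15 UMIs were counted, in Langerhans or other dendritic-like cells 7 and 4, in endothelial-like cells 2 and 2, and in T or NK-, lymphatic- and mast-like cells 1 or 0 per library. NDUFA4L2 was thus highest in keratinocyte-like and next in SMC-like cells in both libraries, and the intervals of these classes did not overlap. Against the remaining cells together, SMC-like cells had 1.39 times (1.19 to 1.61) the fresh level and 1.91 times (1.71 to 2.13) the cryopreserved level.

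Shares of cells showed the same order. At least 1 NDUFA4L2 UMI was found in 58.3% (54.0 to 62.5) of fresh and 53.9% (50.8 to 56.9) of cryopreserved keratinocyte-like cells. In SMC-like cells the shares were 31.3% (25.6 to 37.5) and 31.4% (26.7 to 36.3). The background in T or NK-like cells, at a median depth of 6361 and 4736 UMIs, was 0 of 137 cells (which, at 3 cells, allows a share of cells with a UMI of up to 2.19%) and 0.415% of 241 cells. SMC-like cells had a median of 7686 and 5026 UMIs, and keratinocyte-like cells 14856 and 9697 UMIs. After thinning each cell to 1000 UMIs the shares were 17.3% and 19.0% in keratinocyte-like cells, 9.05% and 12.1% in SMC-like cells and 0.413% and 0.896% in fibroblast-like cells.

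Within the classes NDUFA4L2 differed by cluster. Cluster 9 of the SMC-like cells, led by HIGD1B and KCNQ3, had 115 CPM (95.9 to 138) fresh and 242 CPM (215 to 271) cryopreserved. Cluster 12, led by CNN1, a gene of contractile smooth muscle, had 77.0 CPM (59.5 to 97.9) and 95.8 CPM (74.5 to 121). The higher level of the cryopreserved SMC-like cells lay mostly in cluster 9, and the difference between the clusters was not tested. Among keratinocyte-like cells, cluster 3, led by the keratins KRT1 and KRT10 of the upper layers, had 335 and 338 CPM. Cluster 2, led by DLK2, ASCL2 and KRT15, had 235 and 268 CPM, and cluster 10 had 150 CPM (129 to 172) and 319 CPM (296 to 344). Cluster 18, led by DIAPH3 and CDC20, had 233 CPM (181 to 296) and 195 CPM (167 to 225), and was the only keratinocyte-like cluster with the lower value in the cryopreserved library. Its intervals overlap, and a single cell held 25.0% of the 68 fresh UMIs, counted in 22 cells, so this direction is uncertain. In fibroblast-like cluster 17, led by COCH and TNN, 37.4 and 133 CPM were counted, but a single cell held 57.1% and 41.2% of those UMIs. In CD163/CD209 myeloid-like cluster 19 a single cell held 85.7% of the 14 cryopreserved UMIs.

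**Figure D5:**
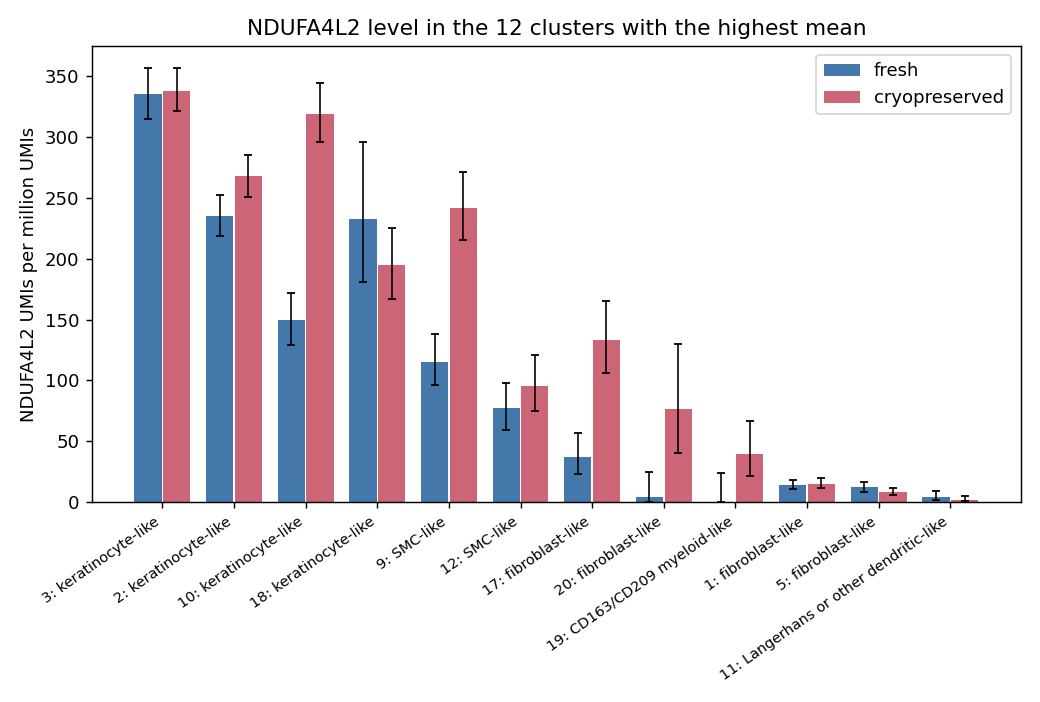
NDUFA4L2 level (CPM of the cluster's total UMIs) in the 12 clusters with the highest mean of both libraries, fresh and cryopreserved, with 95% counting intervals. The 4 keratinocyte-like clusters stand at 150 to 338 CPM, SMC-like cluster 9 at 115 and 242 CPM, and the remaining clusters other than 12 and 17 below 80 CPM.

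NDUFA4L2 was also set beside a list of genes linked to low oxygen. This list, from HIF1A to COX4I2, had a median log2 ratio of 0.20 over 10 genes. Of these, 5 were past 0.25, beside 26.6% of all genes. EPAS1 was the only 1 lower by that much (-0.32, -0.37 to -0.28), beside 19.3% of all genes. Summed over the list the level was 950 CPM fresh and 941 CPM cryopreserved. Of this, HIF1A had 167 and 154 CPM and EPAS1 had 245 and 195 CPM, so the sum is not a measure of the response to low oxygen alone. By class the list was highest in SMC-like cells, with 2288 and 2103 CPM, and keratinocyte-like cells had 857 and 790 CPM, so its order differed from that of NDUFA4L2. In SMC-like cells its log2 ratio was -0.12 (-0.18 to -0.06), where NDUFA4L2 had 0.93 (0.67 to 1.19). In keratinocyte-like cells the list had -0.12 (-0.16 to -0.07) and NDUFA4L2 0.21 (0.13 to 0.29).

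The 250 bases before the gene start are shown for the members on which the results turn: the most abundant member (NDUFB9), the subunits with the highest ratios (NDUFA1 and NDUFB11), the subunit with the lowest ratio (NDUFS1) and the member most restricted to single classes (NDUFA4L2). They are read 5′ to 3′ in the direction of the gene from the RefSeq Sscrofa11.1 genome, at positions matched by gene symbol, since the deposited IDs carry no positions. Capitals mark the motifs searched on both strands: GCATGCGC for NRF1, CCGGAAG for GABPA, AAGATGGC for YY1 and ACGTG for hypoxia-inducible factor.
NDUFB9, chr4:15113282-15113531, minus strand: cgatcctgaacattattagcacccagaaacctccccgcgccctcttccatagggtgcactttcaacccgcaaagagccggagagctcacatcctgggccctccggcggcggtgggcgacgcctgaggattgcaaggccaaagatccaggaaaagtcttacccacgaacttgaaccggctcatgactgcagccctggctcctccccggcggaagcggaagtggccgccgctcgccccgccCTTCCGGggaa
NDUFA1, chrX:98219467-98219716, plus strand: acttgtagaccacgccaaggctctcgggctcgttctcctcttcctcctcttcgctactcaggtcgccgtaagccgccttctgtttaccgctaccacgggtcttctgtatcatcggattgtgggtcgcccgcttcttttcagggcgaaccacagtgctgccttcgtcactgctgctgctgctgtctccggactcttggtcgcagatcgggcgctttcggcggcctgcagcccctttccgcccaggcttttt
NDUFB11, chrX:41773880-41774129, minus strand: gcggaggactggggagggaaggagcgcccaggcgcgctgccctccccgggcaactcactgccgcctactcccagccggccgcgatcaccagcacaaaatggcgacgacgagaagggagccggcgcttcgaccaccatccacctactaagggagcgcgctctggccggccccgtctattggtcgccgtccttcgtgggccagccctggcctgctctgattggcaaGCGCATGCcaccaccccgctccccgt
NDUFS1, chr15:109451814-109452063, minus strand: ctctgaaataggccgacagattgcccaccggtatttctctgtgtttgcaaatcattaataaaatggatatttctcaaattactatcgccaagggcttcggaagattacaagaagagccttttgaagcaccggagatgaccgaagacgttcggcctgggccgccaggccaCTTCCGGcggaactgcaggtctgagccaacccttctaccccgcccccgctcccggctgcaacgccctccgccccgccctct
NDUFA4L2, chr5:22548419-22548668, minus strand: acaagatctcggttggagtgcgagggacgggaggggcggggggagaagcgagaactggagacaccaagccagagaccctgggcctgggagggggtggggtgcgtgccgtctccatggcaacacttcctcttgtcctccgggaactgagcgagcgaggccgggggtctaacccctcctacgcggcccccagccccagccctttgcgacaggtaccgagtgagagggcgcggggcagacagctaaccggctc
The GABPA letters stand in the NDUFB9 and NDUFS1 sequences and the NRF1 letters in the NDUFB11 sequence, each on the opposite strand. NDUFA1 and NDUFA4L2 hold none of the 4 exact motifs searched in this window. The near form GCGTG, which stands in the NDUFA4L2 sequence, was not among the letters searched for hypoxia-inducible factor. The search thus does not show that NDUFA4L2 lacks such a site.

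All 40 members could be matched to such a sequence by symbol. For 36 of the 40 a table of gene names gave the same symbol for the deposited ID. The pairing of the others was not checked by ID. The NRF1 letters were found in 5 of the 40 (12.5%), beside 2.29% of 19508 protein-coding genes, in NDUFA5, NDUFA6, NDUFB4, NDUFB11 and NDUFS6. The GABPA letters were found in 6 (15.0%), beside 7.78%, and the YY1 letters in 2 (5.0%), beside 1.49%. The hypoxia letters ACGTG were found in 2 members (5.0%), beside 18.7% of all genes. No gene on the same strand overlapped a member in RefSeq, and 10 members overlapped a gene on the other strand. The strand setting of the counting is not given in the sources used here, so the counts of these 10, among them NDUFA1, NDUFB11 and NDUFS3, are uncertain in that respect. NDUFA4 has an annotated pseudogene, with which it could share reads.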

How the data were processed

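Single-cell 3′ RNA libraries of fresh and cryopreserved pig skin cells were analysed, 1 library per group. The authors deposited unnormalized UMI counts per gene and barcode, made per the labels with Cell Ranger 4.0.0 and STAR 2.5.1b on Sscrofa11.1. The feature and barcode files hold names only. Cells with at most 4500 genes, 30000 UMIs and 10% mitochondrial UMIs (13 protein-coding genes) were kept. Counts were summed per library and scaled with TMM factors (edgeR 4.0.16). Log2 ratios of CPM have exact conditional binomial intervals, class levels exact Poisson intervals and shares above 0 exact binomial intervals, all 95% and for counting error only. The calculation was tested on simulated data. Counts and medians over genes took those with 200 UMIs or more over both libraries. Cells were integrated and clustered with Seurat 5.3.0 (2000 features without NDUF genes, 30 dimensions, resolution 0.8). Clusters were named from marker lists by a rule set after the first clusters were seen: at least 3 markers in 10% or more of the cells and 2-fold over the median cluster. Both keratinocyte lists were joined, since their boundary moved with the settings. No doublet caller was run, and the study relied on a scatter gate and maxima. Python 3 with SciPy 1.17.1 was used. Alternatives included total UMIs and DESeq2 1.42.0 size factors.

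Named genes were the nuclear core subunits, NDUFA4, NDUFA4L2, NDUFAB1, all assembly factors, the 5 highest and 5 lowest members by mean CPM and by log2 ratio, the 5 with the largest ratio of highest to median class, the 5 most similar other genes and the ND genes. FOXRED1, EPAS1, NDUFA5 and the cluster genes were named after their values were seen. The members and lists were chosen with earlier results of these data known. The values of 1 gene of this rule are not reported here, though it enters the counts, sums and medians. Each group had 1 library, so no p-value was computed.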

Additional observations from a re-analysis of the deposited data

Results flagged for a closer look

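A pair of features without a symbol had counts above the 3 that a count of 0 allows and entered no comparison, because the deposited table gives them by ID only. The names table pairs ENSSSCG00000002449 with NDUFB1 and ENSSSCG00000041220 with NDUFA7. The first had 666 UMIs in the fresh library and 1025 UMIs in the cryopreserved library (20.4 and 28.3 CPM, log2 ratio 0.48, 0.33 to 0.62). The second had 1564 and 2422 UMIs (47.8 and 66.9 CPM, log2 ratio 0.48, 0.39 to 0.58).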

How the results depend on the processing

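None of the 18 results reversed under the 141 alternatives run, but counts, levels and the ratio of highest to lowest class have no direction to reverse. Changes of the clustering also left most class values the same or nearly so. Of the values, 124 were scored as unchanged, by their counting interval or, for counts, within 1.5 times. No interval is given for the median log2 ratio of 0.38. It was scored as unchanged at 0.29 with all barcodes and at 0.48 with cells of 1000 to 20000 UMIs. The summed log2 ratio of 0.40 was 0.36 with total UMIs, 0.31 with all barcodes, 0.43 without the mitochondrial limit, 0.50 with cells of 1000 to 20000 UMIs, 0.38 with equal weight per cell and 0.38 without NDUFA4 and NDUFA4L2. With cells of 6000 to 10000 UMIs it was 0.76, and the median log2 ratio 0.71 instead of 0.38, over 33 members with enough UMIs. This last choice of cells, and leaving out those 2 genes, were added after seeing the data. The cells of 6000 to 10000 UMIs also differed in class mixture between the libraries. With all barcodes 1 member, NDUFS1, was lower by 0.25 or more instead of 0, and the median level over all members was 43.0 instead of 39.4 CPM. The ratio of highest to lowest class was 2.70 in the fresh library with TMM factors between classes and 3.40 in the cryopreserved library with equal weight per cell. NDUFA4L2 in SMC-like over the remaining cells was 1.68 fresh with equal weight and 1.66 cryopreserved with TMM factors. The summed log2 ratio was 0.54 in CD163/CD209 myeloid-like cells with TMM factors, 0.08 in endothelial-like cells with the same factors, and with equal weight 0.24 in keratinocyte-like and 0.29 in lymphatic-like cells. The cause of these shifts was not tested. No paired analysis was possible because each group has 1 library. The number of libraries limits the comparison, and library and treatment cannot be told apart.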
